A study of Mus musculus with 2 samples.

Results

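H3K4 methylation is written in mammals by 6 related enzymes, encoded by Kmt2a, Kmt2b, Kmt2c, Kmt2d, Setd1a and Setd1b, each of which works in a complex with the same 4 core subunits, encoded by Wdr5, Rbbp5, Ash2l and Dpy30. These 10 genes were taken by symbol from 21951 protein-coding genes of the GENCODE annotation of the mouse genome GRCm38. Their own chromatin was read in lung ILC2s, group 2 innate lymphoid cells, as the peaks of H3K4me3 that overlapped the gene or lay within 1000 bp of any of its annotated transcript starts. All 10 had a peak at a start in both groups, as did 41.3% of all protein-coding genes (51.0% in the control group and 42.0% in the asthma group). The peaks are described by where they lay, how wide they were and how they ranked among the peaks of other genes.

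H3K4me3 is carried by the nucleosomes on either side of an active transcript start, and the nucleosome over the start itself is often missing. The SETD1 enzymes are known for most of the trimethylation in a cell, the KMT2A and KMT2B enzymes for trimethylation at particular starts, and the KMT2C and KMT2D enzymes for monomethylation at enhancers. The core subunits hold the catalytic domain in its active form, and without them the enzymes work poorly.

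H3K4me3 was profiled by CATCH-seq, a ChIP-seq method made for few cells that cuts unfixed chromatin with micrococcal nuclease, from about 3000 sorted lung ILC2s (CD45+, Lin-, ST2+) of 8-week-old wild-type C57BL/6J offspring. The offspring of asthmatic mothers, here the OVA offspring, were born to mothers that had been sensitised by intraperitoneal ovalbumin (OVA, 100 µg) with alum and then given repeated intranasal doses of 500 µg of OVA, every few days between days 4 and 17 of gestation. The offspring of control mothers, here the control offspring, were born to mothers that received PBS with alum and then intranasal PBS over the same days, so that alum was common to both. Males and females were used in the study, and the sex of the mice behind each library was not given in the sources used here. Each group was 1 library, from 1 pregnant dam in 1 experiment, so there is no replicate of any value and no test between the groups, and mother, litter and library cannot be told apart from treatment.

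The 2 peak lists differed as a whole. In control offspring 42126 peaks were listed, and their median width was 315 bp. In OVA offspring the list was longer, at 51610 peaks, and the median peak was 249 bp wide. The narrowest peaks listed were 190 bp wide in control offspring and 156 bp in OVA offspring, so widths in bp had unlike lower limits. A start peak was listed for 11199 of the 21951 protein-coding genes (51.0%) in control offspring and for 9220 (42.0%) in OVA offspring, and in both lists for 9064 (41.3%). Of 12 genes that mark ILC2s, 10 and 8 had a start peak, with none at Klrg1 or Icos in either list and none at Gata3 or Il7r in OVA offspring. Of 32 markers of T cells, B cells, macrophages, neutrophils, epithelial, endothelial and fibroblast cells, 3 had a start peak in control offspring (Epcam, Cdh1 and Kdr) and 0 in OVA offspring.

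The sequences around 5 of the starts are shown because the peaks lay differently on them, across the window, beside it or on both sides of it. Each is the RefSeq promoter window on GRCm38.p6, from 250 bases before a start to 50 after it, 5′ to 3′ on the gene's strand, with every CpG in capitals. A RefSeq window was matched for 7 of the 10 genes, and the start it is built on need not be the GENCODE start used for the peaks. The windows of Kmt2a (chr9:44881240-44881539, minus strand) and Kmt2c (chr5:25498734-25499033, minus strand) had no base under a peak in either list. That of Kmt2d (chr15:98871156-98871455, minus strand) was covered in full, over 300 bases, in control offspring and over 151 bases in OVA offspring. That of Wdr5 (chr2:27514897-27515196, plus strand) was covered at its 5′ end, over 77 bases in control offspring and 108 in OVA offspring. That of Rbbp5 (chr1:132477117-132477416, plus strand) was covered at its 3′ end, over 56 and 28 bases.
Kmt2a: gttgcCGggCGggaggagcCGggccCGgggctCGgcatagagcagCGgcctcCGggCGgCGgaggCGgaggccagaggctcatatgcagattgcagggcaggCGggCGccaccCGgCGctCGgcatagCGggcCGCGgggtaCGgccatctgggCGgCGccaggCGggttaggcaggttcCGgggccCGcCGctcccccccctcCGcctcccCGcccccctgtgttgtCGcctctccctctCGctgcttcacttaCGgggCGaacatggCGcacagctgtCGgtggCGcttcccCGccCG
Kmt2c: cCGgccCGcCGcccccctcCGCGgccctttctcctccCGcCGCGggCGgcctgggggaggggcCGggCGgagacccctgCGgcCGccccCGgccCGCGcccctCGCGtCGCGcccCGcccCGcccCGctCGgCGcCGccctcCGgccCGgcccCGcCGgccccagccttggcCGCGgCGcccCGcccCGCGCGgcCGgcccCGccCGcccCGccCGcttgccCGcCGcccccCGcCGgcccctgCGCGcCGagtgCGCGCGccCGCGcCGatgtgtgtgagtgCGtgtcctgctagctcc
Kmt2d: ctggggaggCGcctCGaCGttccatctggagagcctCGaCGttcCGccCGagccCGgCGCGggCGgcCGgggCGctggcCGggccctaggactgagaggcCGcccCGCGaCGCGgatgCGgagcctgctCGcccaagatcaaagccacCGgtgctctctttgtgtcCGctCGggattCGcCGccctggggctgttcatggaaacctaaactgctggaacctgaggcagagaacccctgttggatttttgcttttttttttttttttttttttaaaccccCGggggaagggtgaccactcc
Wdr5: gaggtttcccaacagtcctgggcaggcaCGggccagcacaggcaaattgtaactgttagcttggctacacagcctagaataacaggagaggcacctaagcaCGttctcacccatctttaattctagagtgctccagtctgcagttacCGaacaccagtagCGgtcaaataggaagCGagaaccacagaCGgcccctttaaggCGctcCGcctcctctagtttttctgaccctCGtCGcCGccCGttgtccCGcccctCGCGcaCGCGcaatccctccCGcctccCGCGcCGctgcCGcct
Rbbp5: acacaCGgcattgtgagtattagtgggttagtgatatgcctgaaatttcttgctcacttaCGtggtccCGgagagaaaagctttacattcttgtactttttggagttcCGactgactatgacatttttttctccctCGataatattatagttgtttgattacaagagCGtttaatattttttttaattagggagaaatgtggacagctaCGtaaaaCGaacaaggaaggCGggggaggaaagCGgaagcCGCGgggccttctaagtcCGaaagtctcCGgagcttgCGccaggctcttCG

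The windows differed in how dense their CpGs were, and CpG-dense DNA is where H3K4me3 is usually found. The Kmt2c window held 56 CpGs at a GC content of 88%, more CpGs than 99.8% of the windows of 21262 protein-coding genes, whose median was 13. The Kmt2a window held 36 CpGs at 75.7% GC, and the Kmt2d window held 27 at 62.7% GC. The Wdr5 window, with 22 CpGs, lay closer to the middle of all windows, and the Rbbp5 window, with 16 CpGs at 44% GC, had more CpGs than 55.2% of them. Of the windows not shown, that of Setd1a (chr7:127777139-127777438, plus strand), which lies around a start inside the GENCODE gene, held 35 CpGs and that of Dpy30 held 30. All 7 were therefore above the median of 13. Among short motifs searched on both strands, the SP and KLF motif GGGGCGGGG was in the windows of Kmt2a and Kmt2c and in 15.4% of all windows. The NRF1 motif (1.33% of all windows), the ETS motif CCGGAAGT (5.15%), the YY1 motif AAGATGGCG (1.83%), the CRE motif TGACGTCA (2.23%) and the CCAAT box (38.2%) were in 0 of the 7.

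The peaks at the 10 genes were close to the same places in both groups. Each list had 15 peaks at starts of the 10 genes, and 13 of the 15 in each overlapped a peak of the other list by at least 1 bp. More than 1 start peak was listed for 4 of the 10 genes in control offspring and for 3 in OVA offspring, beside 28.3% and 22.7% of all genes with a start peak. Among start peaks of all protein-coding genes, 70.0% in control offspring and 95.6% in OVA offspring overlapped one. Once near peaks were joined, the domains of the 2 lists overlapped for 10 of 10 genes, and for 97.7% of all genes in both lists. The peaks without a partner were at Kmt2a in both lists, at Ash2l in control offspring and at Kmt2c in OVA offspring. In either list, 6 of the 15 summits lay upstream of the marked start, and the share over all protein-coding genes was not computed. The marked start is the most 5′ annotated start with a peak of either list within 1000 bp. The base of the marked start was itself under a peak for 4 genes in control offspring (Kmt2b, Kmt2d, Setd1b and Rbbp5) and for 1, Kmt2b, in OVA offspring. Over all protein-coding genes with a start peak, these shares were 38.9% and 16.4%.

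**Figure D1:**
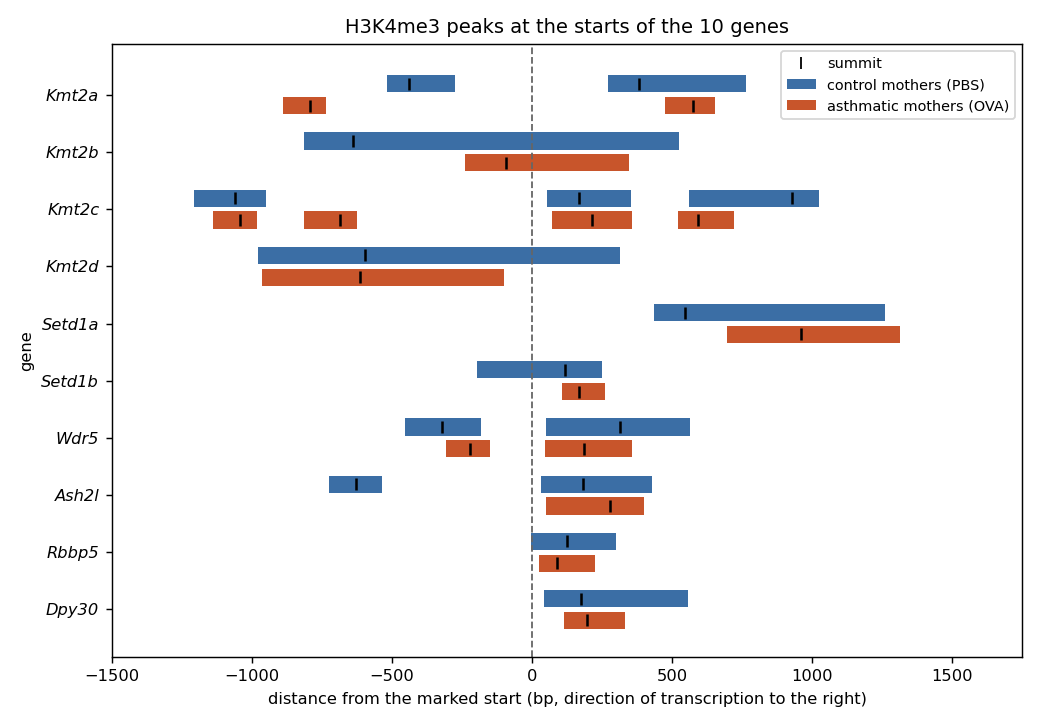
Peaks of H3K4me3 at the starts of the 10 genes in control offspring (blue) and OVA offspring (orange), by distance in bp from the marked start, with transcription running to the right and a black tick at each summit. Peaks sit at like distances in both lists, but they are mostly shorter in OVA offspring, and the marked start (dashed line) is crossed by 4 blue bars and 1 orange bar.

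The start peaks were joined where at most 1000 bp lay between them, and a gene was given the width of its widest joined domain that held a start peak. The domain was wider in control offspring for 9 of the 10 genes, against 92.2% of the 9064 protein-coding genes with a start peak in both lists, so that a narrower domain in OVA offspring was a property of nearly every gene. The median over the 10 genes was 995 bp (range 303 to 1340 bp) in control offspring and 465.5 bp (156 to 1860 bp) in OVA offspring, while the medians over all genes with a start peak were 663 and 409 bp. The ratio of OVA to control width had a median of 0.545 over the 10 genes and of 0.664 over all genes in both lists. The bases under start peaks, without the gaps, were more in control offspring for 10 of 10 genes, with a background of 94.6%, and their ratio had a median of 0.595 against 0.627 over all genes. The smallest width listed also differed between the lists, at 190 bp in control offspring and 156 bp in OVA offspring. With 1 library per group, a difference in library depth, fewer cells with the mark and less of the mark per cell cannot be told apart.

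**Figure D2:**
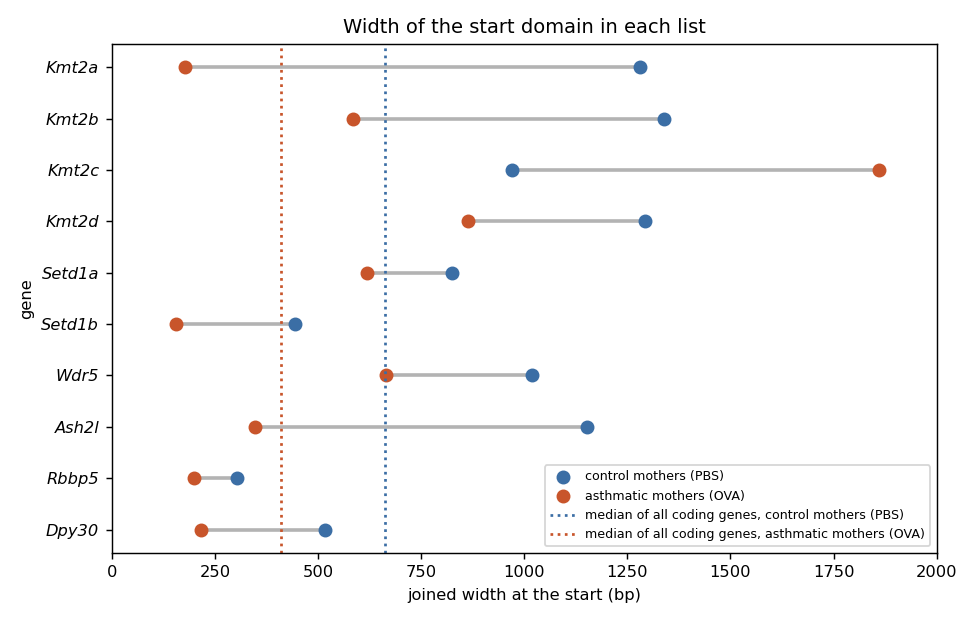
Width in bp of the joined start domain of each of the 10 genes in control offspring (blue) and OVA offspring (orange), with the median over all protein-coding genes with a start peak in each list as a dotted line (663 and 409 bp). Orange lies left of blue for 9 genes, and Kmt2c, at 971 and 1860 bp, is the exception.

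Because widths were smaller for nearly all genes, each gene was also ranked within its own list, as the percent of the other protein-coding genes with a start peak there whose domain was narrower, with genes of equal width shared evenly between narrower and wider. On this scale the 10 genes had a median at the 78.9th percentile in control offspring and at the 55.5th in OVA offspring. Above the 75th percentile lay 6 genes in the first list and 3 in the second, and 7 of the 10 had the higher percentile in control offspring, as did 47.3% of all genes in both lists. Genes were also ranked by the highest −log10 q of a start peak, which rates its significance against the caller's background. By this measure the medians were the 48.5th and the 49.1st percentile. Ranked by fold in place of −log10 q, they were at 30.4 and 46.6, among genes with a start peak in both lists at 39.5 and 48.5, and at the 5′ end of the genes alone at 39.2 and 60.2. A rise of at least 50 percentile points by width in OVA offspring occurred for 0 of the 10 genes and 0.850% of all genes in both lists, and a fall of as much by −log10 q for 0 of the 10 and 7.35%. The rank by width depended on the joining of peaks. With no joining, so that a gene had the width of its widest single start peak, the median percentiles were 43.5 and 36.0, and with only the bases under start peaks counted they were 66.0 and 50.7. With peaks of a −log10 q from 5 up, they were 80.5 and 34.2. The direction between the lists was the same under these. It turned when only the 10000 peaks of highest −log10 q of each list were used, at median percentiles of 23.6 and 58.9 (456 and 588.5 bp wide at the median). Under this threshold 6 and 2 of the 10 genes had a start peak, and the share over all protein-coding genes was not computed.

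**Figure D3:**
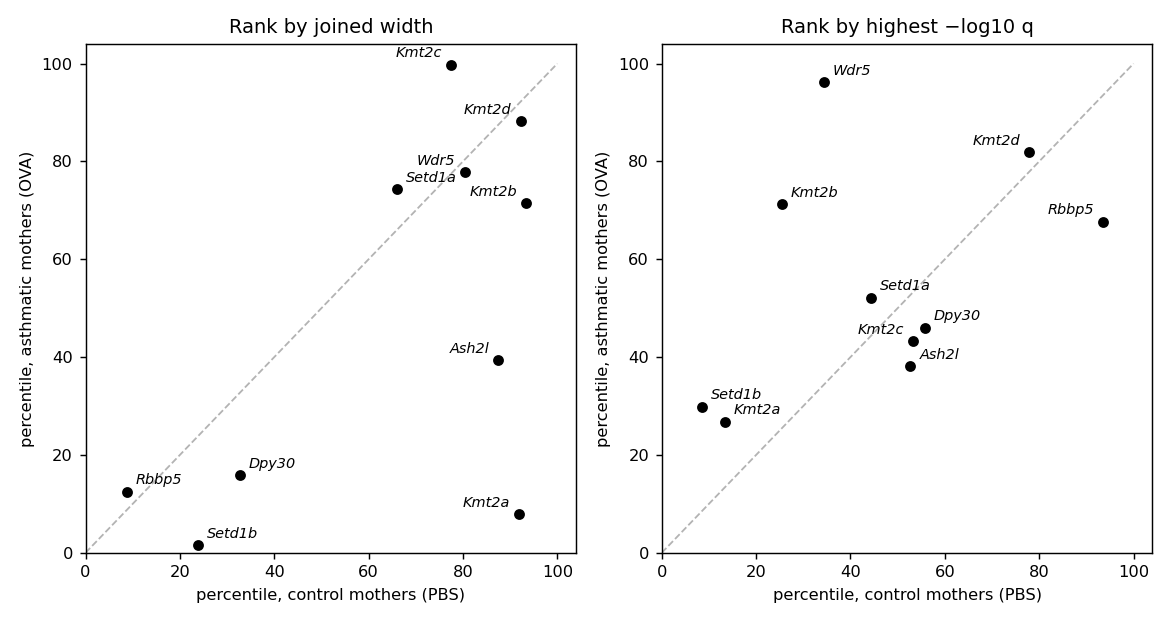
Percentile of each of the 10 genes within the list of control offspring (horizontal axis) and OVA offspring (vertical axis), by joined width of the start domain (left) and by highest −log10 q (right), among protein-coding genes with a start peak in the same list. By width, Kmt2a (91.9 and 7.96) and Ash2l (87.5 and 39.4) lie farthest below the dashed line of equal rank, and by −log10 q Wdr5 (34.3 and 96.2) lies farthest above it.

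Kmt2a and Kmt2b encode the pair of methyltransferases that work with menin, and KMT2A is known for its translocations in leukaemia and for keeping Hox genes active. Kmt2a (ENSMUSG00000002028.13, chromosome 9, 44803355 to 44881296, minus strand) had a peak on each side of its start at 44881296 in both lists, and none over it. In control offspring these peaks ran from 44880534 to 44881026, with the summit in an exon, and from 44881571 to 44881813, outside the gene, with 544 bp between them and a joined width of 1280 bp. In OVA offspring they ran from 44880645 to 44880822, with the summit in an intron, and from 44882031 to 44882186. The peaks inside the gene overlapped over 178 bp, and the upstream peaks did not overlap. The distance of 1208 bp between the peaks in OVA offspring was above the joining limit, which left a widest domain of 178 bp. Kmt2a therefore went from the 91.9th to the 7.96th width percentile, and such a fall of at least 50 points was seen for 1 of the 10 genes and for 7.34% of all genes in both lists. This shift rests on the joining. With peaks joined up to 3000 bp the widths were 1280 and 1542 bp, and counted as bases under start peaks they were 736 and 334 bp, at the 63.2nd and 36.7th percentile. The Kmt2a peaks were low in both lists, at the 13.3rd and 26.8th percentile of −log10 q (7.91 and 6.27), values that come from the upstream peaks, which do not overlap. The overlapping peaks inside the gene had a −log10 q of 7.01 and 3.49, with 23 (14.6 to 34.5) and 12 (6.20 to 20.96) fragments at the summit. An antisense transcript on the opposite strand, AC061963.1, starts 432 bp upstream of the Kmt2a start, inside the joined domain of control offspring, and peaks do not tell the strands apart.

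Kmt2b (ENSMUSG00000006307.16, chromosome 7, 30568858 to 30588726, minus strand), the closest relative of Kmt2a, was the gene whose start was under a peak in both lists. Its single peak ran from 30588202 to 30589541 (1340 bp) in control offspring, the widest domain of the 10 genes there, and from 30588381 to 30588964 (584 bp) in OVA offspring. The narrower peak lay wholly within the wider one, and the part it lacked was mainly upstream. The peak reached 815 bp upstream of the start in control offspring and 238 bp in OVA offspring, and the summit lay at −641 and −94 bp from the start. The opposite-strand microRNA gene Mir3569 begins 654 bp upstream, inside the wider peak alone. By width Kmt2b ranked at the 93.3rd and 71.5th percentile, whereas by −log10 q (10.1 and 9.93) it ranked at the 25.4th and 71.2nd. The summit held 25 fragments (exact Poisson 95% interval 16.2 to 36.9) in control offspring and 22 (13.8 to 33.3) in OVA offspring, numbers solved from the fold and p of the peak that cover counting error only and are not scaled between the libraries.

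Kmt2c and Kmt2d encode the large pair of methyltransferases linked to enhancers, which act together with the demethylase KDM6A. Kmt2c (ENSMUSG00000038056.15, chromosome 5, 25271798 to 25498783, minus strand) was the 1 gene of the 10 with a wider domain in OVA offspring, a direction seen for 7.67% of all genes in both lists. In control offspring its 3 start peaks ran from 25497759 to 25498224, from 25498431 to 25498729 and from 25499734 to 25499990. The last of these lay 1004 bp from its neighbour, 4 bp past the joining limit, so that the joined domain was 971 bp wide and lay inside the gene, from 54 bp after the start onward. In OVA offspring there were 4 peaks, from 25498062 to 25498264, from 25498428 to 25498713, from 25499410 to 25499598 and from 25499766 to 25499921. The third of these had no partner in the other list and lay in the gap, so that all 4 were joined over 1860 bp, rank 22 of 9220 genes by width. The peaks themselves were not wider. The bases under start peaks were 1022 in control offspring and 834 in OVA offspring, and with joining up to 3000 bp the widths were 2232 and 1860 bp. The bridging peak had a −log10 q of 5.39 and 15 fragments at its summit (8.40 to 24.7). The highest −log10 q at Kmt2c was 14.2 in control offspring and 7.73 in OVA offspring, at the 53.4th and 43.3rd percentile, in both lists from the peak at the first exon. The lincRNA 4831440E17Rik starts 284 bp upstream on the other strand, between the peaks, and the CpG-rich window printed above lies in the same gap of both lists.

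Kmt2d (ENSMUSG00000048154.17, chromosome 15, 98831669 to 98871204, minus strand) differed least between the lists in rank by −log10 q. A single peak ran from 98870892 to 98872183 (1292 bp) in control offspring and from 98871305 to 98872168 (864 bp) in OVA offspring. The upstream ends lay at almost the same place, 979 and 964 bp before the start, and the summits were at −597 and −613 bp from it. The part missing in OVA offspring was the one over the start and the first bases of the gene, so that the peak stopped 101 bp short of the start. No other gene is annotated to start within 1000 bp. Kmt2d ranked at the 92.2nd and 88.2nd percentile by width and at the 77.8th and 82.0th by −log10 q (18.0 and 11.4). It had the most fragments at a summit of the 10 genes in control offspring, 39 (27.7 to 53.3), and 24 (15.4 to 35.7) in OVA offspring.

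Setd1a and Setd1b encode the pair that is bound to CXXC1 and WDR82 and acts at the starts of most active genes. Setd1a (ENSMUSG00000042308.14, chromosome 7, 127776670 to 127800122, plus strand) was marked inside the gene, over start sites downstream of the most 5′ one. Its peak ran from 127777104 to 127777928 (825 bp) in control offspring and from 127777365 to 127777982 (618 bp) in OVA offspring, beginning 434 and 695 bp after the first start. Of the 10 genes it kept the most of its width, with a ratio of 0.749 apart from Kmt2c. Its width percentile was 65.9 and 74.4, and its −log10 q of 12.9 and 8.28 lay at the 44.4th and 52.2nd percentile. Its summits held 28 (18.6 to 40.5) and 18 (10.7 to 28.4) fragments.

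Setd1b (ENSMUSG00000038384.16, chromosome 5, 123142193 to 123168629, plus strand) had narrow, low peaks. The peak ran from 123141998 to 123142442 (445 bp) over the start in control offspring, and from 123142298 to 123142453 (156 bp), beginning 105 bp after the start, in OVA offspring. A width of 156 bp was the smallest that occurred in that list, whereas the smallest in control offspring was 190 bp. It put Setd1b at the 1.49th percentile in OVA offspring, from the 23.9th in control offspring. Setd1a and Setd1b thus lay far apart within each list, although both code for the same kind of enzyme. The −log10 q of Setd1b was 6.62 and 6.73, the 8.45th and 29.9th percentile, although its summits held 29 (19.4 to 41.6) and 22 (13.8 to 33.3) fragments, within the range of the other genes. The background that the caller set there was 7.45 and 4.29 fragments, the highest at any start peak of the 10 genes in each list. The lincRNA AI480526 starts 527 bp upstream on the other strand, outside both domains.

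Wdr5, the core subunit that links the catalytic subunit to the rest of the complex, had the largest shift in rank by −log10 q. Wdr5 (ENSMUSG00000026917.15, chromosome 2, 27515157 to 27536535, plus strand) had a peak on either side of its start in both lists, with 234 bp uncovered between them in control offspring and 197 bp in OVA offspring. The upstream peaks ran from 27514703 to 27514973 and from 27514849 to 27515004, and those in the first intron from 27515208 to 27515721 and from 27515202 to 27515514. In control offspring both were alike, with a −log10 q of 11.6 upstream and 10.6 downstream. In OVA offspring they were unlike, with 4.30 upstream and 15.2 downstream. The downstream value was the highest among the 10 genes in that list and rank 346 of 9220 genes, whereas in control offspring Wdr5 ranked 7356 of 11199, so that the percentile went from 34.3 to 96.2. These ranks set the upstream peak of control offspring beside the downstream peak of OVA offspring. A rise of at least 50 points was seen for 1 of the 10 genes and for 2.97% of all genes in both lists. Upstream, the summit held 23 fragments (14.6 to 34.5) in control offspring and 12 (6.20 to 20.96) in OVA offspring. Downstream, it held 22 (13.8 to 33.3) and 24 (15.4 to 35.7), over backgrounds of 2.66 and 1.87. The intervals overlapped at both places. By width Wdr5 ranked alike, at the 80.3rd and 77.8th percentile (1019 and 666 bp). With peaks of a −log10 q from 5 up, which leaves out the upstream peak of OVA offspring, the widths were 1019 and 313 bp.

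Rbbp5 and Ash2l encode the subunits that together form the surface on which the catalytic domain is activated. Rbbp5 (ENSMUSG00000026439.14, chromosome 1, 132477365 to 132505659, plus strand) had the narrowest domain of the 10 genes in control offspring and at the same time the highest −log10 q. Its peak ran from 132477361 to 132477663 (303 bp) there and from 132477389 to 132477587 (199 bp) in OVA offspring. It began 4 bp before the start in control offspring and 24 bp after it in OVA offspring. By width it ranked at the 8.81st and 12.5th percentile, and by −log10 q (22.8 and 9.59) at the 93.6th and 67.7th. Its summits held 32 (21.9 to 45.2) and 17 (9.90 to 27.2) fragments over backgrounds of 2.11 and 1.57. The 3′ end of the sequence printed above was the part under the peak, over 56 bases in control offspring and 28 in OVA offspring. The processed transcript 6030442K20Rik starts 301 bp upstream on the other strand, where neither list had a peak.

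Ash2l (ENSMUSG00000031575.18, chromosome 8, 25815996 to 25847694, minus strand) was marked at an internal start at 25840787 and had no peak at its 5′ end, 25847694, in either list. In control offspring a peak from 25840361 to 25840755 (395 bp) was joined with a smaller one from 25841323 to 25841512 (190 bp) to a domain of 1152 bp. In OVA offspring there was 1 peak, from 25840390 to 25840736 (347 bp), wholly inside the larger of these. The smaller peak, with a −log10 q of 5.19, had no partner. By joined width Ash2l ranked at the 87.5th and 39.4th percentile. As bases under start peaks alone the widths were 585 and 347 bp, at the 42.8th and 39.7th percentile. The −log10 q of the main peak was 14.1 and 7.10, at the 52.7th and 38.2nd percentile, with 31 (21.1 to 44.0) and 19 (11.4 to 29.7) fragments.

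Ash2l was also the only gene of the 10 with a peak away from its starts, 1 in each list, where 15.9% and 19.0% of all genes with a start peak had one. In control offspring it ran from 25836708 to 25836913, 3163 bp from the nearest start, and in OVA offspring from 25836924 to 25837193, 2889 bp from it. Both lay in an intron and did not overlap each other. Both were repeat-masked over 100% of their bases, and the 75 bases around their summits occurred 253 and 454 further times in the 21 assembled chromosomes. Whether the reads could be placed to one site was not tested. None of the 75-base stretches at the start peaks of the 10 genes occurred elsewhere.

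Dpy30 (ENSMUSG00000024067.14, chromosome 17, 74299474 to 74323944, minus strand), which encodes the small subunit that binds ASH2L, was marked at an internal start as well, 74316463, with no peak at its 5′ end at 74323944. Its peak ran from 74315906 to 74316422 (517 bp) in control offspring and from 74316133 to 74316348 (216 bp) in OVA offspring, beginning 41 and 115 bp after that start. It ranked at the 32.6th and 15.8th percentile by width and at the 55.8th and 46.0th by −log10 q (14.6 and 7.74). The summits held 25 (16.2 to 36.9) and 15 (8.40 to 24.7) fragments. Dpy30, Rbbp5 and Setd1b were the genes with domains under the median of all genes in both lists.

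**Figure D4:**
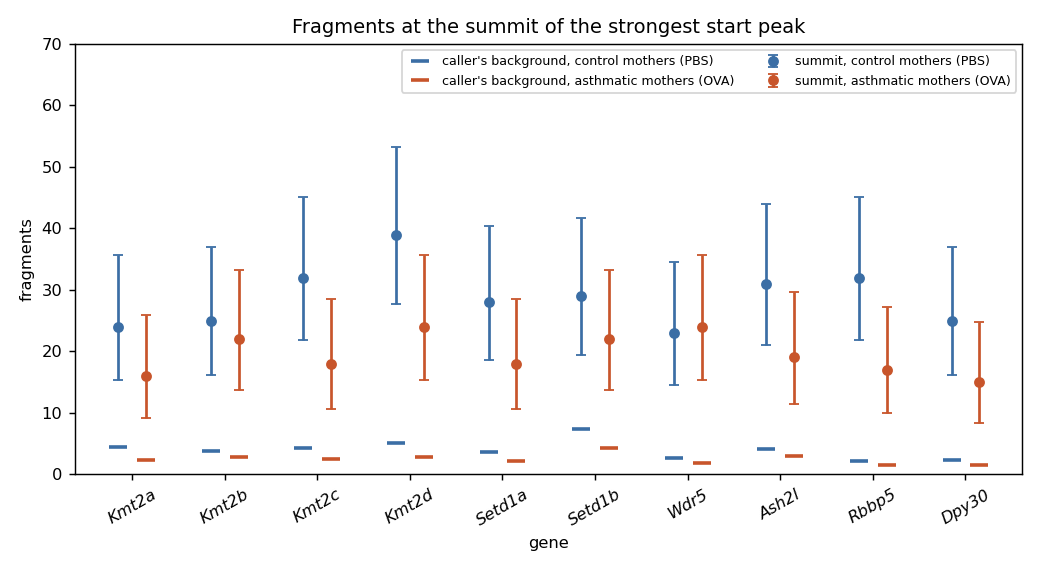
Fragments at the summit of the start peak with the highest −log10 q of each of the 10 genes, with exact Poisson 95% intervals (counting error only, bars) and the background set by the caller (short lines), in control offspring (blue) and OVA offspring (orange). Blue lies above orange for 9 genes, and the share over all protein-coding genes was not computed. Wdr5 is the exception (23 at its upstream peak in control offspring and 24 at its downstream peak in OVA offspring). The values of Kmt2a are from upstream peaks that do not overlap between the lists. The intervals of the lists overlap for all 10 genes, and the numbers are not scaled for library depth.

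Over all 15 start peaks of each list, the summits held 19 to 39 fragments (median 26) in control offspring and 12 to 24 (median 17) in OVA offspring. The peaks without a partner in the other list held 24 fragments at Kmt2a and 19 at Ash2l in control offspring, and 16 at Kmt2a and 15 at Kmt2c in OVA offspring. The intervals of the summits of the strongest peaks overlapped between the lists for all 10 genes. The depth of the libraries was not known from the lists, so fragments were not scaled. The start peaks of the 10 genes had a median GC content of 69.3% and 73.7%, against 65.7% and 68.6% for start peaks of all protein-coding genes, and the part of base composition in the widths was not tested.

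Other genes of the same pathway also had a start peak as a rule. Of 35 such genes 34 had one in control offspring and 30 in OVA offspring, where the shares over all protein-coding genes were 51.0% and 42.0%. Of the 30 with one in both, 28 had the wider domain in control offspring, a share near the 92.2% over all genes in both lists. All 12 accessory subunits of the complexes had a start peak in control offspring and 11 in OVA offspring, where Men1, which encodes menin, had none. Their median width percentile was 67.0 and 62.9, with Kdm6a, the demethylase of the KMT2C and KMT2D complexes, the widest (1899 and 1016 bp) and Hcfc1 the narrowest (480 and 156 bp). All 5 H3K4 demethylases had a start peak in both lists, at median width percentiles of 58.3 and 72.6. The widest was Kdm5b in both lists (1151 and 1080 bp), and the narrowest were Kdm1b (447 bp) in control offspring and Kdm5c (349 bp) in OVA offspring. Among 7 other methyltransferases and relatives, 6 and 5 had a start peak. The muscle gene Smyd1 had none in either list, Smyd3 had one in control offspring alone (415 bp), Kmt2e was the widest (2513 and 1334 bp) and Prdm9 was the narrowest in OVA offspring (299 bp). All 11 genes whose products read H3K4me3 had a start peak in control offspring and 9 in OVA offspring, where Ing3 and Phf8 had none. Ing2 was the widest, at 2111 bp in both lists, and Phf8 (303 bp) and Spin1 (213 bp) were the narrowest. The median width percentile was 75.4 and 79.0 for the other methyltransferases and 61.4 and 62.6 for the readers. With 1 library a group, no shift between the lists was tested.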

How the data were processed

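The data were H3K4me3 CATCH-seq peaks of lung ILC2s, from 1 library of control offspring and 1 of OVA offspring. The authors trimmed the reads with Trim Galore and Cutadapt, aligned them to GRCm38 with Bowtie2 and removed duplicates with Sambamba. The peak caller, its threshold and the use of an input library for these lists were not given in the sources used here. The reporting summary of the study names MACS2 for its ATAC-seq and says that ChIP-seq peaks were not called, although a list is deposited for each library. The deposited lists give each peak a position, a summit and a score, found by test to be the −log10 q multiplied by 10 and cut to a whole number in nearly all peaks. The authors' fold is a ratio of signal to the caller's background at the summit. The p-value and q-value of the authors, both as −log10, rate each peak against that background. None of these is scaled between the lists, so they were compared as ranks within a list.

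The genes and the lists of other genes were chosen with earlier results of these data known. The genes named are the 10 members, genes that start within 1000 bp of their starts or inside their domains, and, from 4 pathway lists, the widest, the narrowest and those without a start peak. Also named are ILC2 markers without a start peak in a list and markers of other cell types with one. Peaks within 1000 bp of an annotated start (GENCODE M21) counted as start peaks, and peaks at most 1000 bp apart were joined. Positions are counted from 1. Percentiles are over protein-coding genes with a start peak in the same list. Fragments at summits were solved from the fold and p under a Poisson model with 1 fragment added to signal and background. They are derived, not the authors' values, and hold only if the caller used no control library. The study gives its sequencing depth as a total that is not split by library, so the depth of each list is unknown. All 400 joined widths and 500 fragment numbers planted in simulated data were recovered. The fragments were planted under the same model, so their recovery checks the calculation and not whether a control library was used. Intervals cover counting error only. With 1 library per group no test was made. The alternatives were thresholds on peaks, the distance to a start, joining, ranking by fold and the 5′ end alone. Computation used pandas 2.3.3, numpy 2.4.6 and scipy 1.17.1, with matplotlib 3.10.9 for plots, under Python 3.11.15. Coverage tracks were not analysed here.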

Additional observations from a re-analysis of the deposited data

How the results depend on the processing

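No paired analysis was possible because each group held 1 library, and for the same reason no library could be left out. Of 76 values recomputed under an alternative, 38 stayed within their limits and 38 moved. Values are given for control offspring and then OVA offspring. Counting start peaks within 500 or 2000 bp moved none of them. Restricted to a −log10 q from 5 up, the median width of the 10 genes was 330 bp in OVA offspring, the median width percentiles were 80.5 and 34.2 and the −log10 q percentiles 47.1 and 42.8. With the 10000 peaks of highest −log10 q, 6 and 2 of the 10 genes had a start peak, the median widths were 456 and 588.5 bp, the width percentiles 23.6 and 58.9 and the −log10 q percentiles 28.3 and 51.1. With them 1 gene, Kmt2d, had a start peak in both lists and was wider in control offspring, and 0 and 0 genes had a peak away from starts. The order of the lists by median width and percentile is thus turned by this threshold, which leaves few of the genes. The share of all protein-coding genes that it leaves was not computed. With peaks joined up to 3000 bp the median widths were 1085.5 and 601 bp and the percentiles 81.4 and 70.9. With no joining they were 503.5 and 299.5 bp and 43.5 and 36.0. At the 5′ end alone, which leaves 8 genes in each list, the median width in OVA offspring was 601 bp and its percentile 73.2, the −log10 q percentiles were 39.2 and 60.2, and 2 and 2 genes had a peak away from it. Ranked by fold, the median percentiles were 30.4 and 46.6. The following were chosen after seeing the data. Among genes with a start peak in both lists, the medians in control offspring were 75.8 by width and 39.5 by −log10 q. As bases under start peaks alone, the median widths were 760.5 and 408 bp and the percentiles 66.0 and 50.7. Where the construction of an alternative does not show it, the cause was not tested. The depth limits all widths, since signal under the caller's threshold is not listed.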
